A study of Mus musculus with 12 samples.

Results

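The subject here is cholesterol synthesis and sterol control in mouse fetal membranes: 29 genes, taken by symbol from the 48795 genes of the deposited count table, with no expression value used to choose them. They comprise 7 enzymes of the mevalonate steps, 11 enzymes of the squalene and sterol steps, 5 genes of sterol control, 4 of uptake and transport, and 2 of efflux. All 29 had enough counts to be tested, among 18153 genes that did. Bulk RNA was sequenced from fetal membranes of mice lacking both biglycan and decorin (double knockout, DKO), which are small proteoglycans that bind collagen, and of wild-type (WT) mice. There were 4 groups of 3 libraries: DKO at embryonic day 18 (E18 DKO), WT with an E18 label (E18-labelled WT), DKO at embryonic day 12 (E12 DKO) and WT at day 12 (E12 WT). The labels give the strain of both DKO groups as C3H and C57BL/6 and that of both WT groups as C3H, so strain and genotype cannot be told apart. They do not say whether a library came from 1 or several membranes, or whether the knockout was confined to any tissue. Nor do they say that replicates were separate animals, so p-values measure the spread between these libraries. In bulk RNA, fewer cells of a type and less RNA per cell cannot be told apart.

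Cholesterol is built from acetyl-CoA through mevalonate and farnesyl diphosphate to squalene, which is cyclised to lanosterol and then trimmed and reduced to cholesterol. The transcription factors encoded by Srebf1 and Srebf2 switch these enzymes on when the endoplasmic reticulum is poor in sterol: Scap escorts them to the Golgi for activation, and Insig1 and Insig2 hold that complex back when sterol is plentiful. Cells with surplus sterol make oxysterols, which activate liver X receptors and through them the exporters Abca1 and Abcg1. In rodents the yolk sac endoderm passes maternal lipid to the embryo in lipoproteins, and the embryo also makes cholesterol of its own.

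Total counts ran from 19967593 to 33065424 per library. Bgn was at 23.9 to 25.1 CPM (counts over library size, after TMM normalisation) in E18 DKO and 14.4 to 16.4 CPM in E12 DKO, against 223.1 to 380.9 CPM in E18-labelled WT and 270.4 to 685.8 CPM in E12 WT. Dcn was at 4.67 to 8.44 CPM in all 6 DKO libraries and at 197.5 CPM or more in all 6 WT libraries. The stage labels did not hold up in the same way. The embryonic share of beta-globin counts was 1.33 to 2.67% in E18 DKO but 74.8 to 87.8% in E18-labelled WT, close to the 82.3 to 85.1% of E12 DKO. Genotype and stage therefore cannot be told apart in the comparison of E18 DKO with E18-labelled WT. In E12 WT the share was 14.8% in library 1, against 95.1 and 97.1% in libraries 2 and 3. Mitochondrial genes took 21.2% of the counts of E12 WT 3 and 3.58 to 7.78% of those of the 11 other libraries. E18-labelled WT 3 held 881.8 CPM of trophoblast and decidua markers, against at most 49.6 CPM in E18 DKO. Markers of membrane epithelium were present in all libraries, at a sum of 2371 to 8251 CPM, and those of yolk sac visceral endoderm summed to 52255 to 156456 CPM, so yolk sac markers were abundant in every library.

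The promoters of the members that moved furthest beyond their spread are shown because most of their genes fell together in E18 DKO. RefSeq promoter windows on GRCm38.p6, from 250 bases before to 50 after each annotated start, were found for 23 of the 29 genes (31 windows). The 200 bases before the start are printed 5′ to 3′ on the gene's strand, with capitals marking CCAAT boxes, E-boxes (CACGTG) and the sterol element TCACNCCAC, on either strand. Lss, Insig1, Cyp51 and Dhcr7 had the lowest adjusted p in the comparison with most calls, Insig2 is the paralogue of Insig1, and Hmgcs1 was added after the search because it alone held the sterol element.
Lss, chr10:76531405-76531604, plus strand: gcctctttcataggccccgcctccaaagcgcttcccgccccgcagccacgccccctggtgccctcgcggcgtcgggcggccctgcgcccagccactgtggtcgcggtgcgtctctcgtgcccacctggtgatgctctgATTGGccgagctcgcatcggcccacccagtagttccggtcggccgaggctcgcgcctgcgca
Insig1, chr5:28071212-28071411, plus strand: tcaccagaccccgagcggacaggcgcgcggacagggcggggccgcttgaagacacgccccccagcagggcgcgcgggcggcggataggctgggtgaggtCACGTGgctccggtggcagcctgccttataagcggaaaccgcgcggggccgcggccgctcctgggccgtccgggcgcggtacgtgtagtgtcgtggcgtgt
Cyp51, chr5:4104698-4104897, minus strand: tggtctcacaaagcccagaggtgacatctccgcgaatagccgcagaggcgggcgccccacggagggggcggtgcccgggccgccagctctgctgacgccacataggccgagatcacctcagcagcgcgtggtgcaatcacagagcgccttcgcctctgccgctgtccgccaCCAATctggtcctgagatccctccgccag
Dhcr7, chr7:143830014-143830213, plus strand, of 3 windows: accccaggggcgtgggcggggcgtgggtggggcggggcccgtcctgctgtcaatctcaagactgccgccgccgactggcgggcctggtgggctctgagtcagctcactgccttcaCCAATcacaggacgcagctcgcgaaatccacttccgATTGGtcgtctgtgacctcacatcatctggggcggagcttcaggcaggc
Hmgcs1, chr13:119690151-119690350, plus strand: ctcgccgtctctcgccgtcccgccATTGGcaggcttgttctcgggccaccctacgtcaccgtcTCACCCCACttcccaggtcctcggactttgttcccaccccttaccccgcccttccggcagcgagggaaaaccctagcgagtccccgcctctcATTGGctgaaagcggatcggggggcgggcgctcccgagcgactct
Insig2, chr1:121332590-121332789, minus strand, of 3 windows: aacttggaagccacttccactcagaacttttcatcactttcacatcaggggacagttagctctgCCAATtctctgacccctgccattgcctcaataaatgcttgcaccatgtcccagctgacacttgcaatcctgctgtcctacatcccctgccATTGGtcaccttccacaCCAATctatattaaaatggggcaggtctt

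A CCAAT box, the site of the factor NF-Y, began 62 bases before the start in Lss and 29 bases before it in Cyp51. Dhcr7 had boxes at 85 and 49 bases in the window shown, and Insig1 an E-box at 101 bases. In Hmgcs1 the sterol element, to which the sterol factors bind, lay at 137 bases, between boxes at 176 and 45 bases. Over the whole 300-base windows, a CCAAT box was present in 20 of the 23 genes (87.0%), against 41.1% of 27025 genes with a window. An E-box was present in 6 of 23 (26.1%), against 8.09% of all genes. The sterol element in exactly these letters was present in 1 of 23 (4.35%), against 1.44% of all genes. The liver X receptor element, a pair of AGGTCA sites 4 bases apart with at most 1 mismatch in each, was found in 0 of the 23 genes, against 2.02% of all genes. Pairs with more mismatches were not sought. Npc1 and Abcg1, the members called higher in E18 DKO against E18-labelled WT, had no window, nor had Fdps, Fdft1, Sqle and Stard4. No matches of different motifs overlapped. A match describes these letters only: all 6 genes shown held a CCAAT box in their windows, the 5 that fell in E18 DKO and Insig2, which did not. The box of Insig1 lies outside the 200 bases printed. Of the 3 windows each of Dhcr7 and Insig2, the one printed held the most matches in its 200 bases. There the other windows held 0 matches for Insig2, and 0 and 1 for Dhcr7. For 20 of the 31 starts, the bases just after the start occur within a transcript of that gene in the GENCODE annotation used here. Whether the starts coincide with transcript starts was not tested.

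The comparison of E18 DKO with E18-labelled WT sets the genotypes side by side under 1 stage label, although the libraries differ in strain and in globin stage as well. Nearly the whole synthesis pathway was lower in E18 DKO: 15 of 18 enzymes fell, from Hmgcs1 near the entry to Dhcr7 at the last step. Insig1, the feedback gene of the pathway, fell with them, while the sterol exporter Abcg1 and the lysosomal cholesterol transporter Npc1 rose. Together the 18 enzymes summed to 649.4, 802.7 and 848.2 CPM in E18 DKO, against 2443, 1942 and 1994 CPM in E18-labelled WT. The sums were 1880.2, 1811 and 2385 CPM in E12 DKO and 2300.4, 1940.1 and 2807 CPM in E12 WT, so every E18 DKO library lay below the lowest of the other 9.

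By the quasi-likelihood test of edgeR, adjusted over all tested genes by Benjamini-Hochberg, 20 of the 29 members were called at an adjusted p under 0.05 (69.0%), in a comparison in which 42.3% of all tested genes were called. Lower calls numbered 18 (62.1% of members, against 21.8% of all genes) and higher calls 2 (6.90%, against 20.5%). The 2 groups did not overlap in 24 of the 29 members (82.8%), against 56.9% of all genes. The median log2 fold change was -1.09 over the members and -1.80 over the 18 enzymes, beside -0.04 over all tested genes. All 20 calls kept their direction and their call without E18-labelled WT 3, without E12 WT 1, and without both.

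**Figure D1:**
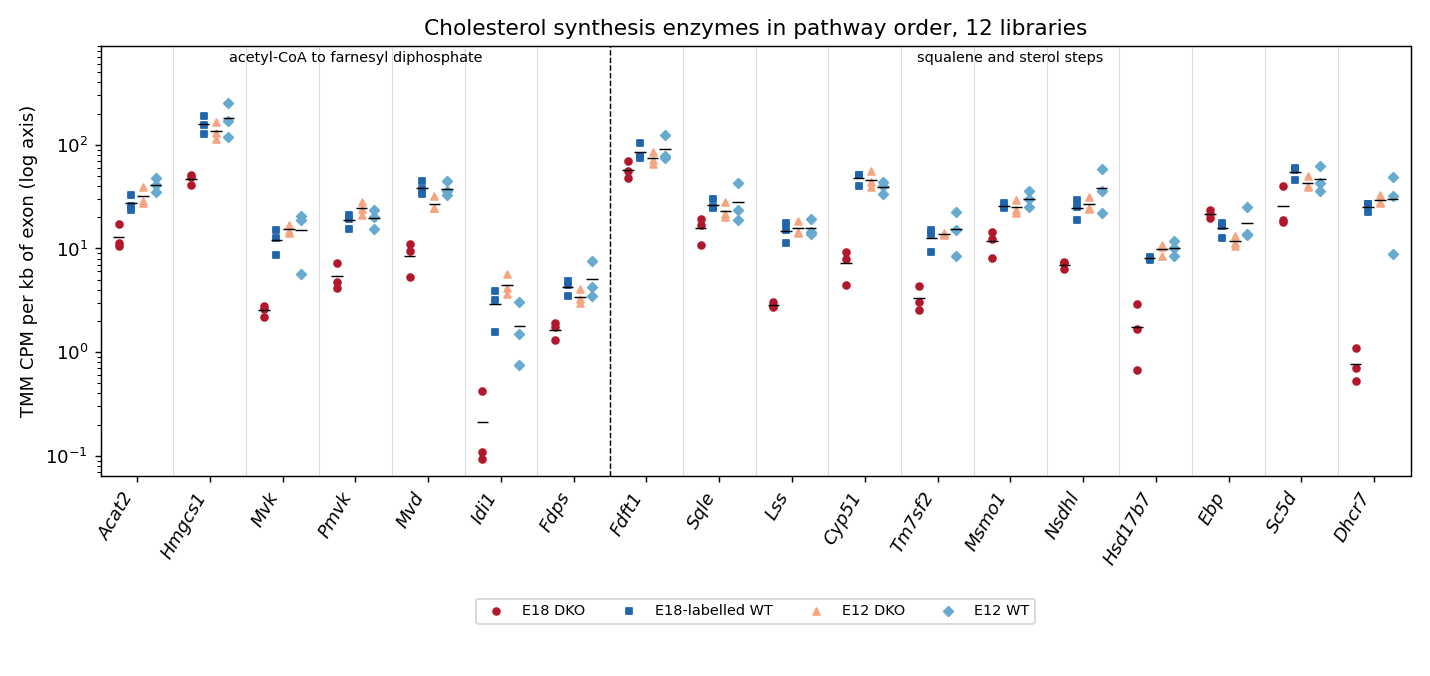
Level of the 18 synthesis enzymes in pathway order, as TMM-normalised CPM per kb of exon on a log axis, 1 point per library and a short line at each group mean (n = 3). E18 DKO libraries lie below all others at most steps, furthest at Idi1 and Dhcr7, whereas at Ebp they lie between 19.9 and 23.7 CPM per kb, among or above the others.

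All 7 mevalonate enzymes fell in E18 DKO. Hmgcs1, an early synthase of the pathway, was at 157, 166 and 133 CPM in E18 DKO, against 618, 413 and 500.3 CPM in E18-labelled WT. E12 DKO had 419.8, 366 and 538 CPM and E12 WT had 544, 381 and 826 CPM. The 3 E18 DKO libraries lay below all 9 others, with a log2 fold change against E18-labelled WT of -1.75 ± 0.29 (SE, n = 3 per group, adjusted p = 0.000941). Mvk, mevalonate kinase, had 7.42, 7.04 and 5.83 CPM in E18 DKO and 34.1, 40.2 and 23.2 CPM in E18-labelled WT, 39.7, 37.6 and 45.1 CPM in E12 DKO and 15.3, 50.1 and 55.1 CPM in E12 WT. E12 WT 1 was thus the lowest outside E18 DKO, and the fold change was -2.26 ± 0.40 (adjusted p = 0.00139). The next kinase, Pmvk, was at 8.13, 12.5 and 7.19 CPM in E18 DKO, against 32.9, 36.4 and 26.4 CPM in E18-labelled WT, a fold change of -1.78 ± 0.25 (adjusted p = 0.000442). Mvd, which makes isopentenyl diphosphate, had 9.78, 20.3 and 17.5 CPM in E18 DKO and 83.2, 62.3 and 69.5 CPM in E18-labelled WT, a change of -2.17 ± 0.26 (adjusted p = 0.000207). For both genes the groups were clear of each other.

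The isomerase Idi1, which interconverts the isoprene building blocks, had the largest fold change of the mevalonate genes. It was near the bottom of detection in E18 DKO, at 0.330, 1.49 and 0.381 CPM, against 13.8, 11.2 and 5.50 CPM in E18-labelled WT, and at 14.6, 12.6 and 19.7 CPM in E12 DKO and 10.7, 5.28 and 2.65 CPM in E12 WT. The fold change of -3.74 ± 0.67 (adjusted p = 0.00146) became -4.82 without E18 DKO 2, the highest of its group. Acat2, the cytosolic thiolase of the first step, had 28.8, 43.8 and 26.9 CPM in E18 DKO and 83.4, 65.7 and 59.7 CPM in E18-labelled WT (-1.07 ± 0.23, adjusted p = 0.00429). Fdps, which joins isoprenes into farnesyl diphosphate, had 7.97, 5.46 and 7.30 CPM in E18 DKO and 20.6, 14.8 and 18.9 CPM in E18-labelled WT (-1.39 ± 0.30, adjusted p = 0.00383). Idi1, Acat2 and Fdps are uncertain as single genes, since near-identical copies can take or lose their reads: Idi1 matches Gm13502 over 684 bases at 100% identity, Acat2 matches Acat3 over 1477 bases at 97.7%, and Fdps matches Gm3571 over 1062 bases at 98.9%. The predicted gene Gm43738 also covers 26.7% of Fdps exon bases on the same strand, and Gm48342 matches 462 bases of Hmgcs1 at 100%.

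In the squalene and sterol steps 8 of 11 enzymes fell, and the size of the change differed widely between neighbouring steps. Dhcr7 (GRCm38 chr7:143823145-143848410), which reduces 7-dehydrocholesterol to cholesterol and is mutated in the human Smith-Lemli-Opitz syndrome, fell furthest. It had 3.08, 4.05 and 6.32 CPM in E18 DKO, against 158, 155 and 129.5 CPM in E18-labelled WT. E12 DKO had 160.3, 164 and 192 CPM and E12 WT 51.6, 187 and 284 CPM, so that E12 WT 1 lay between E18 DKO and the rest. The log2 fold change was -5.04 ± 0.55 (adjusted p = 0.000137), a level 32.9-fold lower in E18 DKO, and between -5.37 and -4.83 with any 1 library left out. Its partner in the last steps, the desaturase Sc5d, changed far less, with 44.1, 41.9 and 92.4 CPM in E18 DKO and 139, 107 and 134 CPM in E18-labelled WT (-1.09 ± 0.31, adjusted p = 0.0157). E18 DKO 3 stood well above the other 2 E18 DKO libraries, and the call was lost without E18 DKO 1 or E18 DKO 2 (adjusted p = 0.0661 and 0.0584).

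Lss (chr10:76531588-76557138), which folds squalene epoxide into lanosterol, had the lowest adjusted p of the members. It had 29.2, 33.0 and 30.2 CPM in E18 DKO and 189.7, 163 and 122 CPM in E18-labelled WT, and 152, 156 and 198 CPM in E12 DKO and 148, 155 and 206 CPM in E12 WT. The fold change was -2.36 ± 0.21 (adjusted p = 7.82e-05), and E12 WT 1, low for Dhcr7 and Mvk, was level with the other E12 libraries here. Cyp51 (chr5:4081145-4104746), the lanosterol demethylase, followed the same pattern, with 19.5, 41.0 and 35.2 CPM in E18 DKO and 226, 178 and 225 CPM in E18-labelled WT (-2.71 ± 0.27, adjusted p = 0.000118). In E12 DKO it measured 192, 172 and 248 CPM and in E12 WT 193, 148 and 178 CPM. Of the enzymes that strip the remaining methyl groups, Hsd17b7 had 3.41, 15.0 and 8.61 CPM in E18 DKO and 42.3, 41.4 and 39.8 CPM in E18-labelled WT (-2.19 ± 0.39, adjusted p = 0.00152). E18 DKO 2 was the highest of its group again, and the fold change was -2.78 without it. Nsdhl, the dehydrogenase of the same complex, had 17.9, 20.6 and 21.3 CPM in E18 DKO and 83.7, 72.5 and 53.3 CPM in E18-labelled WT (-1.81 ± 0.31, adjusted p = 0.0012). Msmo1, the monooxygenase that acts first on these groups, changed less, at 50.2, 76.5 and 89.6 CPM in E18 DKO and 168, 154 and 152 CPM in E18-labelled WT (-1.13 ± 0.22, adjusted p = 0.00242). Tm7sf2, a sterol reductase that works after Cyp51, had 10.7, 8.87 and 15.1 CPM in E18 DKO and 52.5, 47.8 and 31.9 CPM in E18-labelled WT (-1.93 ± 0.33, adjusted p = 0.00125). Its value is uncertain, since Vps51 covers 15.3% of its exon bases on the same strand.

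The sterol enzymes that did not pass the test were Fdft1, Sqle and Ebp. Fdft1, the squalene synthase, had 136, 160.4 and 199 CPM in E18 DKO and 295, 215 and 221 CPM in E18-labelled WT (-0.56 ± 0.24, adjusted p = 0.0785). A pseudogene, Gm6781, matches 1249 bases of it at 97.4%. Sqle, the squalene epoxidase, had 60.4, 94.4 and 106 CPM in E18 DKO and 165, 136 and 141 CPM in E18-labelled WT (-0.76 ± 0.30, adjusted p = 0.0627). Although neither was called, both were lower in every E18 DKO library than in every E18-labelled WT library, and both were called without E12 WT 1 (adjusted p = 0.0248 for Fdft1 and 0.0132 for Sqle). Ebp, the sterol isomerase, was the 1 enzyme with a positive fold change, at 54.9, 49.98 and 45.9 CPM in E18 DKO and 38.2, 29.1 and 41.0 CPM in E18-labelled WT (0.48 ± 0.24, adjusted p = 0.137). It was called only without E12 WT 3, among the 12 fits that each left out 1 library (adjusted p = 0.0364).

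Among the control genes, Insig1 and Srebf1 fell and the other 3 did not pass the test. Insig1 (chr5:28071363-28078662), the retention protein that is itself a target of the sterol factors, had 6.05, 10.5 and 10.02 CPM in E18 DKO and 93.1, 75.5 and 62.3 CPM in E18-labelled WT. E12 DKO had 72.7, 65.0 and 97.9 CPM and E12 WT 76.9, 58.6 and 39.1 CPM, so every other library was at 39.1 CPM or more. The fold change was -3.12 ± 0.31 (adjusted p = 0.000114), between -3.26 and -2.90 with any 1 library left out. Insig2, its paralogue, went the other way in value, at 26.7, 37.8 and 20.0 CPM in E18 DKO and 16.1, 17.6 and 21.3 CPM in E18-labelled WT. The groups overlapped, and the fold change of 0.62 ± 0.28 missed the threshold (adjusted p = 0.0954), although it passed without E12 WT 1 (0.0359) or E18 DKO 3 (0.0466). Per kb of exon, Insig1 stood at 0.255, 0.311 and 0.561 times the level of Insig2 in E18 DKO, against 6.48, 4.80 and 3.29 times in E18-labelled WT. The ratio was 5.09 to 6.58 in E12 DKO and 3.45 to 4.27 in E12 WT, so the more abundant of the 2 paralogues was Insig2 in each E18 DKO library and Insig1 in each of the other 9.

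Srebf1, which encodes the sterol factor tied mostly to fatty acid genes, had 47.9, 64.2 and 70.2 CPM in E18 DKO and 142, 158 and 84.4 CPM in E18-labelled WT (-1.07 ± 0.25, adjusted p = 0.0058). E12 DKO had 136, 158 and 145 CPM and E12 WT 76.3, 118 and 96.1 CPM. The counts do not separate its isoforms. Srebf2, the factor tied mostly to cholesterol genes, had 311, 316 and 315 CPM in E18 DKO and 261, 269.7 and 169 CPM in E18-labelled WT (0.43 ± 0.21, adjusted p = 0.129). Its 3 E18 DKO values lay above all 3 E18-labelled WT values, the opposite side from most of the enzymes. Scap had 82.3, 82.5 and 84.0 CPM in E18 DKO and 142, 137 and 77.6 CPM in E18-labelled WT (-0.52 ± 0.21, adjusted p = 0.0684). E18-labelled WT 3 lay below the E18 DKO libraries and apart from the other 2 of its group, and without it the fold change was -0.75 ± 0.15 (adjusted p = 0.00509).

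The uptake and transport genes split. Npc1, the membrane protein that moves cholesterol out of lysosomes, had 376, 415 and 444 CPM in E18 DKO and 128, 148 and 111 CPM in E18-labelled WT. E12 DKO had 161, 173 and 155 CPM and E12 WT 188, 141 and 113 CPM, so E18 DKO lay far above all 9 others, with a fold change of 1.68 ± 0.20 (adjusted p = 0.000201). Npc2, the soluble partner that hands cholesterol to Npc1, had 469, 506 and 383 CPM in E18 DKO and 359, 385 and 328 CPM in E18-labelled WT, with overlapping groups (0.34 ± 0.24, adjusted p = 0.281). Stard4, a carrier that shuttles sterol between membranes, had 65.3, 82.1 and 115 CPM in E18 DKO and 178, 164 and 127 CPM in E18-labelled WT (-0.84 ± 0.25, adjusted p = 0.0206). That call was lost without E18 DKO 1 or 2, or without E18-labelled WT 1 or 2 (adjusted p = 0.0853, 0.0616, 0.0722 and 0.0587). Mylip, a ubiquitin ligase that marks lipoprotein receptors for degradation, had 59.2, 112 and 73.1 CPM in E18 DKO and 87.7, 109.8 and 45.4 CPM in E18-labelled WT (0.01 ± 0.42, adjusted p = 0.99).

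**Figure D2:**
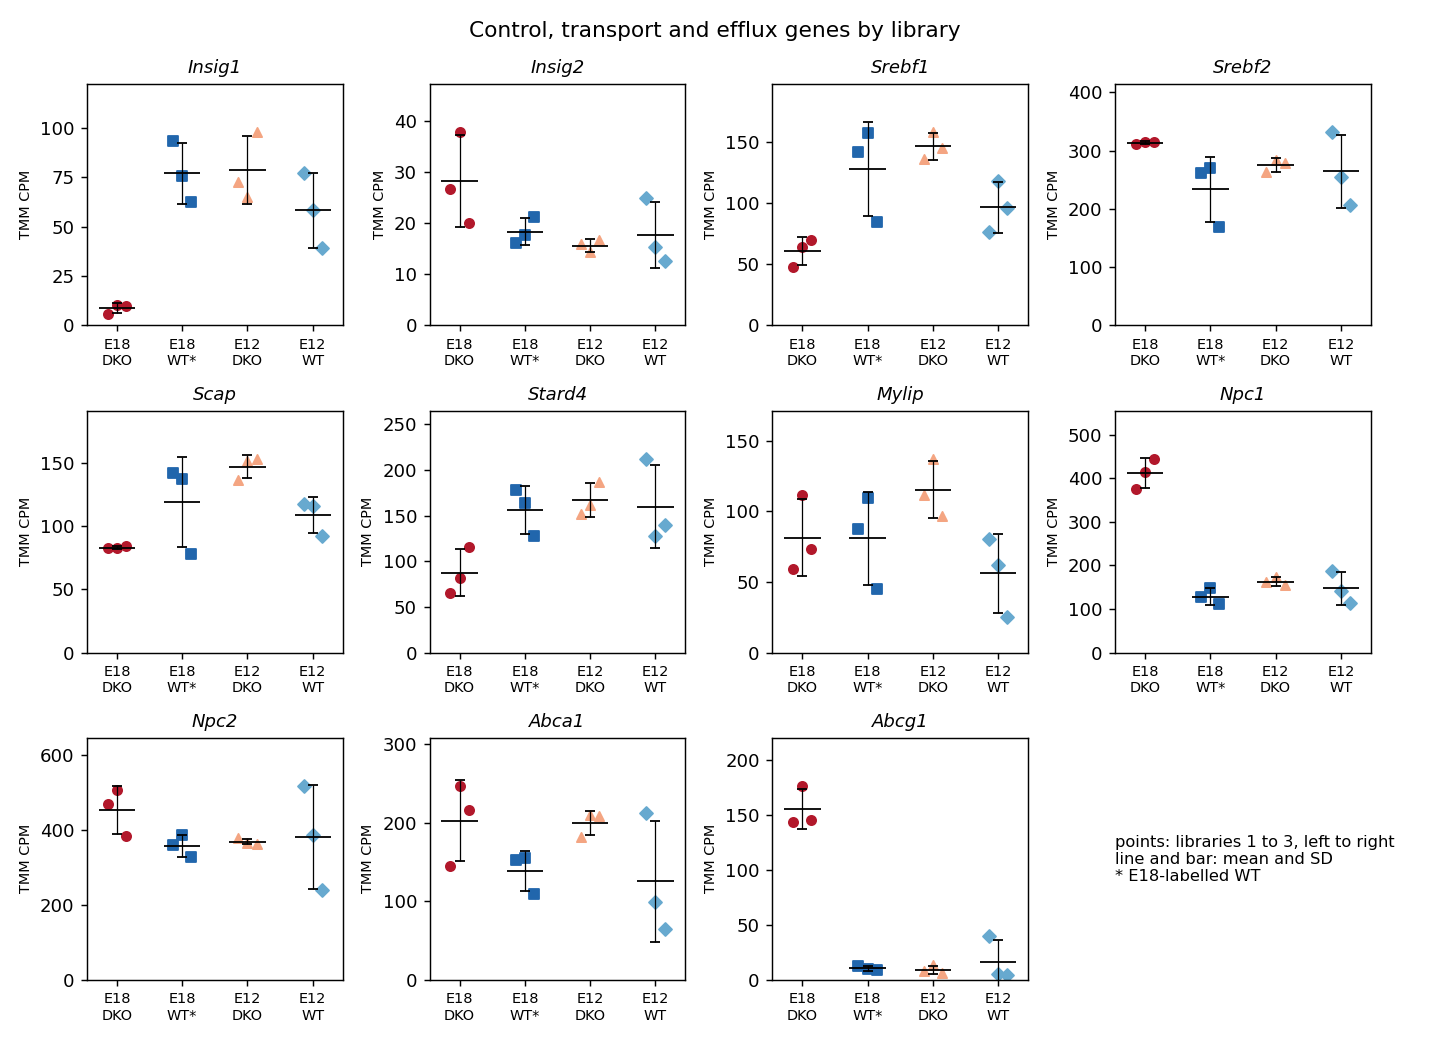
CPM of the 11 control, transport and efflux genes in each library, with group means and SDs (n = 3), 1 panel per gene on a linear axis from 0. Insig1 lies at 6.05 to 10.5 CPM in E18 DKO and higher in all 9 other libraries, while Npc1 and Abcg1 lie highest in E18 DKO.

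Of the exporters, Abcg1 rose and Abca1 did not pass the test. Abcg1 (chr17:31057698-31115777), which loads cholesterol onto high-density lipoprotein, had 144, 176 and 145 CPM in E18 DKO and 12.4, 10.1 and 8.54 CPM in E18-labelled WT. E12 DKO had 7.62, 13.1 and 6.09 CPM and E12 WT 39.6, 5.35 and 4.65 CPM, where E12 WT 1 was well above the other 2. The log2 fold change was 3.90 ± 0.73 (adjusted p = 0.0019), a level 15.0-fold higher in E18 DKO. Abca1, which exports cholesterol to lipid-poor apolipoprotein A-I, had 145, 246 and 216 CPM in E18 DKO and 152, 154 and 109 CPM in E18-labelled WT (0.55 ± 0.36, adjusted p = 0.248). Per kb of exon, Abcg1 stood at 1.72 to 2.53 times the level of Abca1 in E18 DKO, against 0.167 to 0.209 times in E18-labelled WT, 0.0747 to 0.16 times in E12 DKO and 0.138 to 0.476 times in E12 WT. Within each library, then, Abcg1 exceeded Abca1 in E18 DKO and was below it in the other groups.

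**Figure D3:**
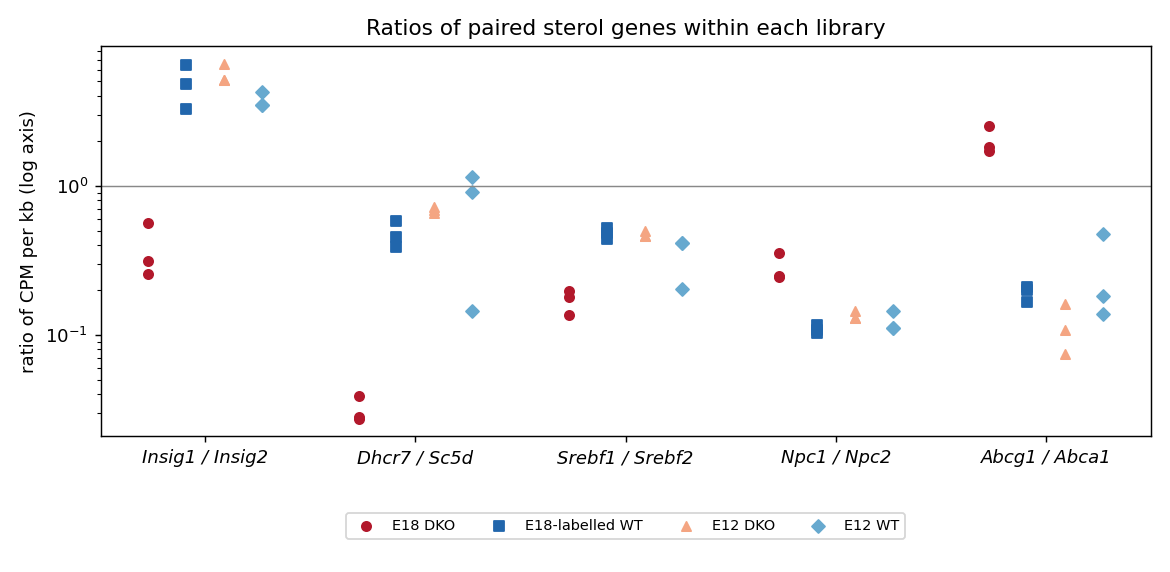
Ratio of per-kb levels of paired genes within each library, on a log axis with a line at equal levels. Insig1 over Insig2 lies between 0.255 and 0.561 in E18 DKO and at 3.29 or more elsewhere, Dhcr7 over Sc5d between 0.0274 and 0.0387 in E18 DKO and at 0.143 or more elsewhere, and Abcg1 over Abca1 above 1 in E18 DKO alone.

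Several cell marker lists also differed between these groups, in a comparison in which 20.5% of all tested genes were higher and 21.8% lower. All 10 markers of dividing cells were lower in E18 DKO, at a sum of 47.3 to 70.3 CPM, against 935.4 to 1091 CPM in E18-labelled WT, 998.2 to 1043 CPM in E12 DKO and 263.3 to 1099 CPM in E12 WT. Of 10 macrophage markers, 6 were higher and 2 lower in E18 DKO, at a sum of 929.6 to 1357 CPM, against 362 to 500.4 CPM in E18-labelled WT, 391.5 to 413.5 CPM in E12 DKO and 349.7 to 677.7 CPM in E12 WT. Macrophages express Abcg1, Abca1 and Npc1. Of 8 membrane epithelium markers 5 were higher and 1 lower (6348 to 8251 CPM in E18 DKO, against 2522 to 3193 CPM in E18-labelled WT), and of 5 stroma markers 4 were lower (2591 to 4570.2 CPM in E18 DKO, against 13336 to 28211 CPM in E18-labelled WT). Yolk sac endoderm had 3 of 9 higher (78343 to 153419 CPM in E18 DKO, against 52255 to 78480.2 CPM in E18-labelled WT), endothelium 2 of 5 higher and 1 lower, cornified epithelium 1 of 3 tested higher, and trophoblast and decidua 1 of 5 tested lower. All the marker lists here, red cells included, held 3 to 10 tested genes each, and nothing is read from their counts against the shares over all genes. Red cells had 3 of 3 primitive and 2 of 4 definitive markers lower. No marker on these lists was at 0 in all 12 libraries. The part of these cell types in the change of the sterol genes was not tested.

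The comparison of E18 DKO with E12 DKO describes the course of pregnancy within 1 genotype and strain label, and it shares the E18 DKO libraries with the comparison above. Synthesis was lower at E18 here too: 14 of 18 enzymes fell and 1, Ebp, rose. In all, 22 of the 29 members were called (75.9%), in a comparison in which 46.0% of all tested genes were called. Lower calls numbered 18 (62.1%, against 22.8% of all genes) and higher calls 4 (13.8%, against 23.2%). The median log2 fold change was -1.09 over the members, beside -0.02 over all tested genes.

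All 7 mevalonate enzymes were lower at E18, from -1.06 ± 0.30 for Fdps (adjusted p = 0.0131) to -4.37 ± 0.68 for Idi1 (adjusted p = 0.000624). Between them lay Acat2 (-1.29 ± 0.23), Hmgcs1 (-1.54 ± 0.28), Mvd (-1.67 ± 0.26), Pmvk (-2.16 ± 0.25) and Mvk (-2.59 ± 0.41). Without E12 DKO 3 the call of Fdps was lost (adjusted p = 0.0509), and without E18 DKO 2 the fold change of Idi1 was -5.45. Among the sterol steps Dhcr7 again changed most, at -5.26 ± 0.55 (adjusted p = 9.91e-05), a level 38.4-fold lower at E18. Cyp51 was at -2.67 ± 0.27, Hsd17b7 at -2.49 ± 0.40, Lss at -2.45 ± 0.21, Tm7sf2 at -2.05 ± 0.34, Nsdhl at -1.94 ± 0.31 and Msmo1 at -1.09 ± 0.22. Hsd17b7 moved to -3.08 without E18 DKO 2. Fdft1 (-0.36 ± 0.24), Sqle (-0.56 ± 0.30) and Sc5d (-0.75 ± 0.31) did not pass the test (adjusted p = 0.237, 0.148 and 0.0643).

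Ebp had 54.9, 49.98 and 45.9 CPM in E18 DKO and 26.3, 24.3 and 30.7 CPM in E12 DKO, the 1 enzyme that was higher at E18 (0.89 ± 0.25, adjusted p = 0.0126). The call was lost without E12 DKO 2 (0.0529) or when libraries were scaled by their totals alone (0.0731). Of the control genes, Insig1 (-3.15 ± 0.31), Srebf1 (-1.27 ± 0.25) and Scap (-0.82 ± 0.21) fell, and Srebf2 did not pass the test (0.19 ± 0.21, adjusted p = 0.49). Insig2, at 26.7, 37.8 and 20.0 CPM in E18 DKO and 15.8, 14.3 and 16.7 CPM in E12 DKO, rose (0.85 ± 0.28, adjusted p = 0.0288). This call was lost in 5 of 12 fits that each left out 1 library, namely any E12 DKO library, E18 DKO 1 or E18 DKO 2 (adjusted p = 0.0752, 0.0928, 0.0629, 0.0571 and 0.125), and with scaling by totals alone (0.167). Abcg1 rose by 4.12 ± 0.74 (adjusted p = 0.00133) and Npc1 by 1.34 ± 0.20 (adjusted p = 0.00048). Stard4 fell (-0.93 ± 0.25, adjusted p = 0.0115, lost without E18 DKO 1 at 0.0514), and Mylip (-0.50 ± 0.42), Npc2 (0.30 ± 0.24) and Abca1 (0.02 ± 0.36) did not pass the test. Dividing-cell markers were lower at E18 in 10 of 10 and macrophage markers higher in 7 of 10 and lower in 1. Their part in these changes was not tested.

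**Figure D4:**
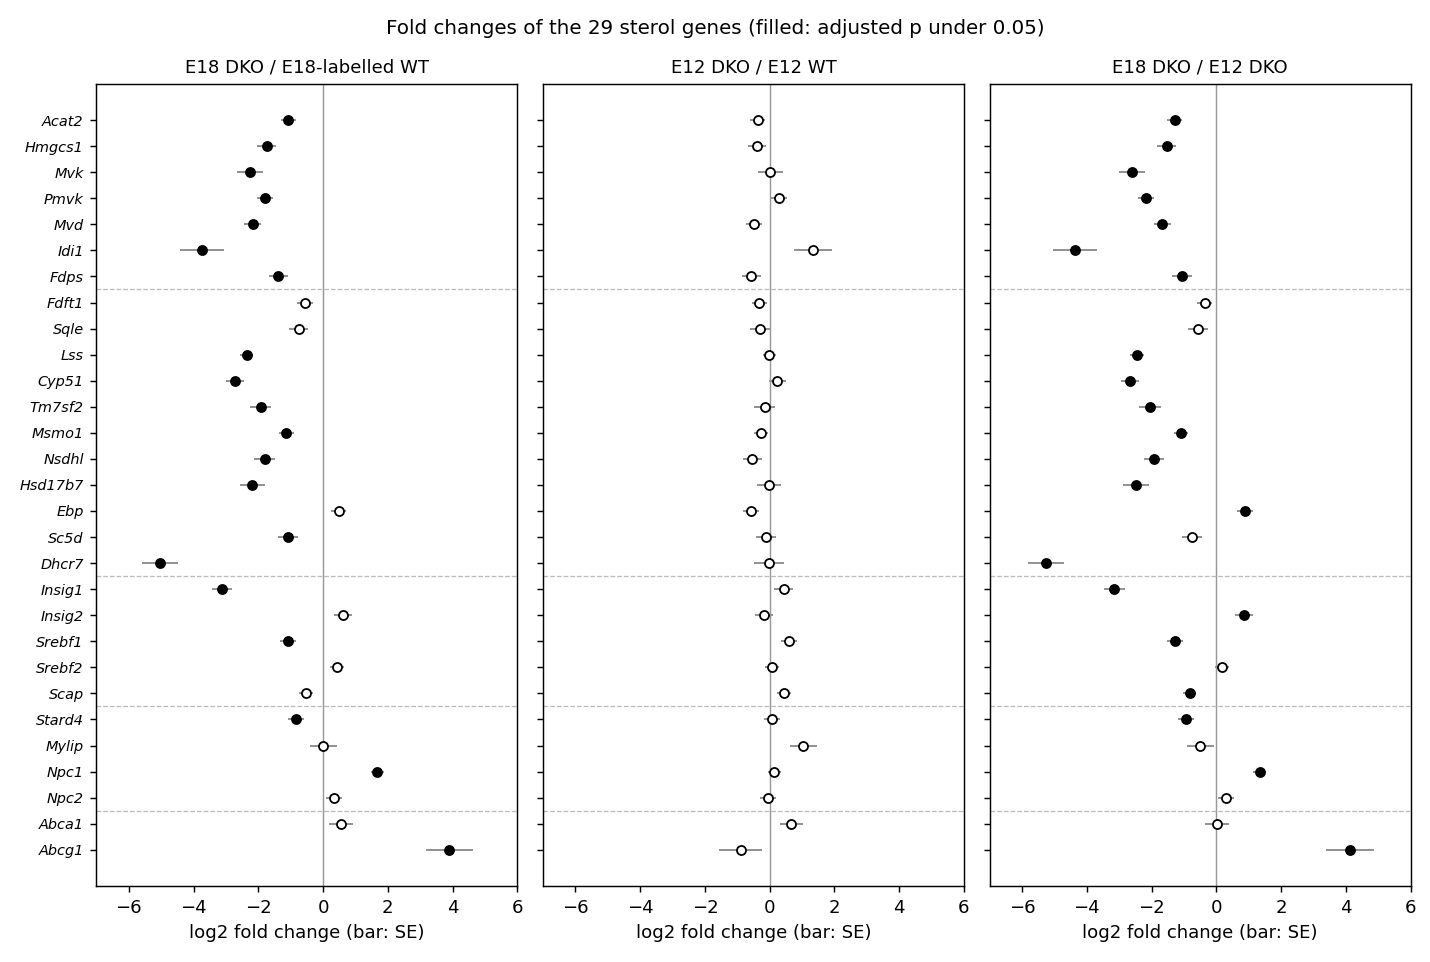
Log2 fold changes of the 29 members with their SEs in 3 comparisons (n = 3 per group), filled where the adjusted p was under 0.05, in role order with dashed lines between roles. The left and right panels share the E18 DKO libraries, and 20 and 22 points are filled there, while 0 are filled in the middle panel for E12.

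At E12, DKO against WT, 0 of the 29 members were called, in a comparison in which 0.353% of all tested genes were called. At an unadjusted p under 0.05 there were 4 of the 29 members in edgeR, beside 4416 of the 18153 tested genes. The DESeq2 Wald test called 0 members as well, beside 1952 genes. The groups did not overlap in 6 of 29 (20.7%), against 30.1% of all genes, and the median log2 fold change was -0.03, beside -0.08 over all tested genes. The spread within E12 WT, with library 1 apart from the others, limits what this comparison can show. The lowest adjusted p belonged to Mylip, at 112, 137 and 97.1 CPM in E12 DKO and 80.5, 62.3 and 25.5 CPM in E12 WT (1.04 ± 0.42, adjusted p = 0.167). Srebf1 was at 0.60 ± 0.25 (adjusted p = 0.172), Ebp at -0.57 ± 0.25 (0.184) and Idi1 at 1.33 ± 0.59 (0.194).

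Leaving out E12 WT 1 changed this. Abca1, at 182, 209 and 208 CPM in E12 DKO and 212, 98.6 and 65.1 CPM in E12 WT, was then at 1.29 ± 0.26 (adjusted p = 0.0129). Idi1 was at 1.97 ± 0.60 (0.0454), and Nsdhl, at 70.9, 68.7 and 89.1 CPM in E12 DKO and 62.8, 101 and 167 CPM in E12 WT, at -0.81 ± 0.24 (0.0401). In E12 WT 1 the members did not move as a block, as these genes, picked after their values were seen, show. Dhcr7 (51.6 CPM), Mvk (15.3 CPM) and Abcg1 (39.6 CPM) lay on the side of the E18 DKO values from E12 WT 2 and 3, whereas Insig1 (76.9 CPM), Cyp51 (193.2 CPM), Hsd17b7 (60.3 CPM) and Sqle (236.3 CPM) lay on the other side. The sum of dividing-cell markers in that library was the lowest of E12 WT, at 263.3 CPM.

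Between E18-labelled WT and E12 WT, 0 of the 29 members were called, in a comparison in which 0.953% of all tested genes were called. At an unadjusted p under 0.05 there was 1 of the 29 members in edgeR, beside 3292 of the 18153 tested genes. The DESeq2 Wald test called 0 members, beside 1190 genes. The lowest adjusted p was that of Acat2, at 83.4, 65.7 and 59.7 CPM in E18-labelled WT and 89.0, 105 and 121 CPM in E12 WT (-0.59 ± 0.23, adjusted p = 0.214). Nsdhl was at -0.66 ± 0.30 (0.276), Srebf1 at 0.40 ± 0.25 (0.409) and Insig1 at 0.40 ± 0.29 (0.481). Nsdhl was called without E12 WT 1 (-0.94 ± 0.24, adjusted p = 0.0368). Dhcr7, Lss, Cyp51 and Insig1, which fell between the DKO stages, were not called between the WT labels. The 2 results cannot be set against each other as stage changes. The embryonic share of beta-globin was 74.8 to 87.8% in E18-labelled WT and 14.8% in E12 WT 1, so the stage difference between the WT groups is in doubt.

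Whether the difference between DKO and WT differed between the stage labels was tested as an interaction, E18 minus E12. It was called for 18 of 29 members (62.1%), in a comparison in which 41.9% of all tested genes were called. Lower calls numbered 15 (51.7% of members) and higher calls 3 (10.3%), beside 3679 lower and 3921 higher among all 18153 tested genes. The lower ones included Insig1 (-3.55 ± 0.42, adjusted p = 0.000257), Lss (-2.35 ± 0.29, 0.000273), Cyp51 (-2.95 ± 0.37, 0.000319) and Dhcr7 (-5.02 ± 0.69, 0.000446). The higher ones were Npc1 (1.53 ± 0.28, 0.00177), Abcg1 (4.79 ± 0.98, 0.00315) and Ebp (1.05 ± 0.35, 0.0308). Abcg1 was at 3.07 without E12 WT 1 and stayed called. The call of Ebp was lost in 6 of the 12 fits that each left out 1 library, and with scaling by totals alone (adjusted p = 0.373). By construction this difference is also that between the DKO and WT stage changes, and the doubt about the stage of E18-labelled WT bears on it in full.

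Genes next to the pathway were read from 3 further lists, beside the 20.5% of all tested genes that were higher and the 21.8% that were lower in this comparison. Of 12 fatty acid genes known as targets of the sterol factors, 8 fell (66.7%) and 1 rose (8.33%) in E18 DKO against E18-labelled WT, with a median of -1.5. Fads2, a fatty acid desaturase, averaged 2.78 CPM in E18 DKO and 42.1 CPM in E18-labelled WT (-3.91 ± 0.51, adjusted p = 0.000306), and Acaca, acetyl-CoA carboxylase, 10.9 CPM in E18 DKO and 45.6 CPM in E18-labelled WT (-2.07 ± 0.29, 0.000479). The 1 that rose was Lpin1, a phosphatidate phosphatase, named after its value was seen (3.64 ± 0.70, 0.00225). Of 29 other sterol genes, 8 rose (27.6%) and 7 fell (24.1%), shares near those over all genes, with a median of -0.34. Nr1h2, a liver X receptor, averaged 92.4 CPM in E18 DKO and 34.9 CPM in E18-labelled WT (1.40 ± 0.16, 0.000146), and Lbr, a nuclear envelope protein that is also a sterol reductase, 16.0 CPM in E18 DKO and 53.6 CPM in E18-labelled WT (-1.74 ± 0.20, 0.000174). Of 10 tested liver X receptor targets, 4 of which are members above, 2 rose (20%) and 4 fell (40%), with a median of -0.45. Abcg5, which with Abcg8 exports plant and animal sterols, was lower in E18 DKO (-3.45 ± 0.64, 0.00179), while Abcg1 was higher. At E12, DKO against WT, 0 genes of these 3 lists were called.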

How the data were processed

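RNA from fetal membranes, extracted after grinding frozen tissue, was made into stranded mRNA libraries, per the labels' protocols. The submitters' processing notes name Trimmomatic 0.36, STAR 2.4.2a, Subread 1.5.0 and the build GRCm38. The authors deposited raw counts per gene, made with featureCounts 1.5.0 on Ensembl release 86 with strand option 2, per the file headers, and without counting reads that map to several places. The series table gave the counts of E12 DKO 1, and 11 other files matched it exactly. Its 12 count columns hold 48795 genes, of which 48349 had a symbol, and no count column was left unused.

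Counts were filtered with filterByExpr (18153 genes kept) and scaled by TMM, and all 12 libraries entered 1 quasi-likelihood fit in edgeR 4.0.16 (R 4.3.3) with 4 group means (8 residual degrees of freedom, common BCV 0.373). Adjusted p-values are Benjamini-Hochberg values over all tested genes, called under 0.05. The standard error is the size of the log2 fold change over the square root of F. Levels per kb divide CPM by the exon length in the files. The procedure was run on simulated counts only to check that the code worked. Far fewer genes were changed there than were called in the E18 comparison, so that run does not measure accuracy on these data. DESeq2 1.42.0 and the other alternatives are in the closing section, and figures used matplotlib 3.10.9 in Python 3.11.15. Near-identical copies were sought by aligning GENCODE transcripts (95% identity or more over at least 300 bases).

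The members, lists, rules and tests were chosen with earlier results of these data known. Single fold changes are given for all members, called or not, with the 4 lowest adjusted p where none was called. The other lists have their 2 genes of lowest adjusted p named. Same-numbered libraries of different groups were not paired: the correlations of their deviations from the group means ran from -0.176 to 0.288.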

Additional observations from a re-analysis of the deposited data

Results flagged for a closer look

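In 18 of the 29 members the difference between DKO and WT differed between the stage labels. The test was the interaction term of edgeR's quasi-likelihood test over all 12 libraries (adjusted p under 0.05 over all tested genes, of which 41.9% passed). Strain goes with genotype in these groups, and the beta-globin share puts the stage of E18-labelled WT in doubt. Genotype, strain and stage therefore cannot be told apart in this term. Values below are the log2 fold change of DKO over WT at E18 minus that at E12, each over 3 libraries per group.

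Of the mevalonate enzymes, Idi1 differed by -5.07, Mvk by -2.29, Pmvk by -2.08, Mvd by -1.69 and Hmgcs1 by -1.34. The sterol enzymes that were lower were Dhcr7 at -5.02, Cyp51 at -2.95, Lss at -2.35, Hsd17b7 at -2.16, Tm7sf2 at -1.78, Nsdhl at -1.27 and Msmo1 at -0.86, and Ebp was at 1.05. The control genes Insig1 (-3.55), Srebf1 (-1.67) and Scap (-0.95) were lower, and Npc1 (1.53) and Abcg1 (4.79) higher.

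Some of these calls did not hold in every fit. With 1 library left out in turn, the call was lost in 10 of 12 fits for Msmo1, in 8 for Nsdhl, in 6 for Ebp, in 5 for Scap and in 1 for Hmgcs1 (without E12 DKO 3, adjusted p = 0.0515). Abcg1 moved to 3.07 without E12 WT 1 and stayed called. Without E18 DKO 2, Idi1 moved to -6.15 and Hsd17b7 to -2.75, and without E12 WT 1 Idi1 moved to -5.71. Both genes stayed called in all 12 fits. The other 10 members kept their call in all 12 fits as well.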

How the results depend on the processing

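For E18 DKO against E18-labelled WT, 18 to 23 of 29 members were called with 1 library left out in turn, and 19 to 24 under the other alternatives. For E18 against E12 DKO it was 20 to 24, and for the interaction 14 to 21 and 17 to 24. No called member changed sign under any alternative. Of those not called, some did. For E18 DKO against E18-labelled WT, Mylip was at -0.35 with library size alone, -0.28 without both E12 WT 1 and E18-labelled WT 3, and -0.29 to 0.29 with 1 library left out, and Npc2 at -0.014 with library size alone. For E18 against E12 DKO, library size alone gave -0.33 for Abca1, -0.045 for Npc2 and -0.16 for Srebf2, and Abca1 ran from -0.15 to 0.21 with 1 library left out. The DESeq2 Wald test gave no adjusted p for Abcg1, which therefore has no value there. At E12, 64 genes were called in the main analysis, 1952 by the DESeq2 Wald test, 0 with only the groups compared, 3753 without both E12 WT 1 and E18-labelled WT 3, and 1 to 3199 with 1 library left out. The E12 members called were 5 without those 2 libraries and 0 to 3 with 1 left out, the 3 being without E12 WT 1. Between the WT stage labels 173 genes were called, 1190 by DESeq2, 272 with library size alone, 56 with only the groups compared, 1028 without those 2 libraries and 35 to 1684 with 1 left out; of the members, 0 to 1. The causes were not tested.

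Scaling by library size alone moved the median log2 fold change of all genes from -0.04 to -0.41 for the E18 comparison and from -0.02 to -0.37 for the DKO stages. Under it 2382 genes were higher and 6015 lower at E18 (3725 and 3953 with TMM), 2809 and 5947 between the DKO stages (4203 and 4146), 2187 and 6438 in the interaction (3921 and 3679), 41 and 14 at E12 (17 and 47), and 181 and 91 between the WT labels (53 and 120). All 20 members called at E18 kept their call and direction under it.

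Fitting the replicate number as a block called 20 members at E18, 23 between the DKO stages, 17 in the interaction (Msmo1 lost its call, adjusted p = 0.0566), and 0 at E12 and between the WT labels. With the block 5 genes were called at E12 and 77 between the WT labels. The numbers do not pair the samples. The interaction calls of Msmo1 without the filter (0.0679) and of Ebp with library size alone (0.373) were also lost. With 3 libraries per group, changes near 2-fold in variable genes can be missed. Idi1 had 6, 35 and 7 counts in E18 DKO, so its level there carries large counting error.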
